A study of Mus musculus with 8 samples.

Results

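The comparison described here is that of full-grown mouse oocytes labelled H2A.Z double knockout (DKO) with the oocytes labelled as their control, for all genes of the deposited count table. It uses 4 of the series' 8 libraries, 2 per group, fitted alone. The label of the first group names the loss of both H2A.Z genes, H2A.Z.1 and H2A.Z.2, and the label of the second gives wild type. The remaining 4 libraries are an Mll2 wild type and an Mll2 knockout (KO) group of 2 libraries each, and enter only where the difference between the lines was tested. Every library was made from polyadenylated RNA of about 20 pooled oocytes from ovary, freed of the zona pellucida, the glycoprotein coat of the egg. Strain, age, the driver of any deletion, and whether the libraries of a group came from separate animals are not stated in the labels used here, so p-values measure the spread between these libraries, which may be technical. Of the 35976 gene symbols in the table, 15721 passed the filter on low counts and were tested. Library totals ran from 20309233 to 25186157 counts.

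The histone variant H2A.Z takes the place of H2A in a minority of nucleosomes, above all in those that flank active promoters and enhancers. Its copies are encoded by separate genes, whose proteins differ at few residues, and it is put in and taken out of nucleosomes by ATP-driven remodelling complexes. The full-grown oocyte has largely stopped transcription and lives on RNA stored during growth, and its RNA therefore records both earlier synthesis and later decay.

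Counts of the targeted genes ran against the DKO label. H2afz, the symbol in the table for H2A.Z.1, lies on chromosome 3 from 137864487 to 137866922 (GRCm38.p6, RefSeq). It stood at 23.1 and 29.5 CPM (counts scaled to 1000000 per library, after TMM adjustment, the trimmed mean of M values) in the control libraries, while the libraries labelled DKO had 287.5 and 284.8 CPM. The groups did not overlap, as was so for 35.8% of all genes tested in the higher direction and 35.2% in the lower. The log2 difference was 3.43 ± 0.09 (standard error, SE; n = 2 per group; adjusted p = 5.28e-23, edgeR quasi-likelihood test with Benjamini-Hochberg adjustment). H2afv, which encodes H2A.Z.2, lies on chromosome 11 from 6427226 to 6444511. Its level was 104.3 and 105.6 CPM in the controls and it came to 254.2 and 264.1 CPM under the DKO label, a log2 difference of 1.304 ± 0.07 (adjusted p = 1.50e-16). Counts per gene do not show which exons they come from, so a deletion inside either gene could not be read from them. All differences below are given as measured in the libraries labelled DKO against the libraries labelled control.

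Under this comparison 6777 genes, 43.1% of those tested, passed an adjusted p of 0.05 (called, in what follows). Of these, 3292 (20.9% of the genes tested) were higher under the DKO label and 3485 (22.2%) were lower. Most of the differences were small: 857 of the higher and 1256 of the lower genes exceeded 2-fold (5.45% and 7.99% of the genes tested), 277 and 402 exceeded 4-fold, and 83 and 111 exceeded 8-fold. The median over all genes tested was 0.01 on the log2 scale. Without one library the counts lay between 2486 and 2911 genes higher and between 2762 and 3142 lower. With all 8 libraries in 1 fit, 3269 genes were higher and 1929 lower, and 62.9% of the calls were higher against 48.6% in the fit of the line alone; the median over all genes was then 0.12. Beside all counts below, the background to read them against is this 20.9% higher and 22.2% lower.

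**Figure D1:**
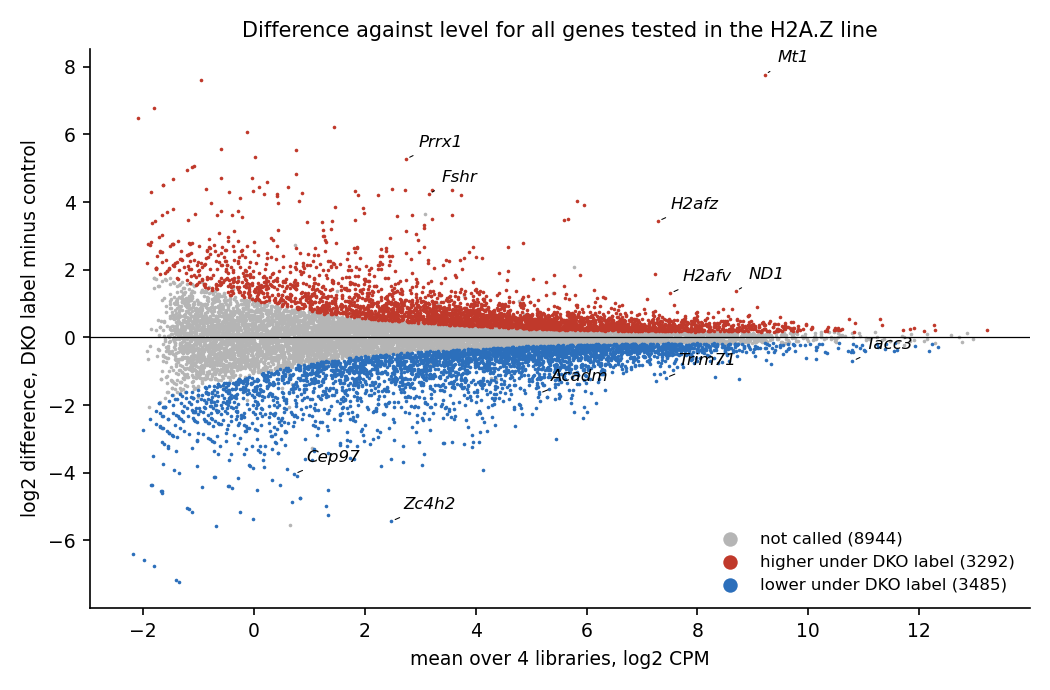
Each point is 1 of the 15721 genes tested, with its mean level over the 4 libraries (log2 CPM) on the horizontal axis and its log2 difference, DKO label minus control, on the vertical axis. Red marks the 3292 genes called higher and blue the 3485 called lower; differences of several log2 units are found among genes of low level and, for Mt1, at a high one.

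The oocyte identity of the libraries was read from its markers. Of 20 oocyte markers, 19 were tested, and the summed level of the list was 39161 and 39664 CPM in the controls, against 36567 and 38849 CPM under the DKO label. Figla, an oocyte transcription factor, and Ooep rose, and 5 fell: Zp1, a zona pellucida protein, the growth factors Gdf9 and Bmp15, Nlrp5, a maternal protein of the egg cortex, and Padi6. The call of Figla was lost without control replicate 1 (adjusted p = 0.0660), control replicate 2 (0.0736) or DKO replicate 2 (0.198), and that of Padi6 without control replicate 1 (0.0543) or DKO replicate 2 (0.0586). Nlrp5 fell by 0.60 on the log2 scale (SE 0.07, adjusted p = 3.93e-09), from 1223 and 1182 CPM to 779.9 and 806.6 CPM. Without control replicate 1, without control replicate 2 and without DKO replicate 2, 1 oocyte marker was called higher. In the 8-library fit 2 were higher and none was lower. The median of the list was then 0.04 against 0.12 over all genes, where the fit of the line alone had -0.08 against 0.01.

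Many markers of other cells of the ovary did not pass the filter on low counts. Of 20 granulosa and cumulus markers 9 were tested. Of these 4 rose (44.4%) and none fell, against 20.9% and 22.2% over all genes. The 4 were Fshr, the receptor for follicle-stimulating hormone, Ptgs2, a prostaglandin synthase, and the transcription factors Gata4 and Nr5a2; Nr5a2 did not pass without control replicate 1 (adjusted p = 0.236), control replicate 2 (0.0845), DKO replicate 1 (0.162) or DKO replicate 2 (0.0617). Fshr stood at 1.25 and 0.59 CPM in the controls and at 16.7 and 17.0 CPM under the DKO label (log2 difference 4.24 ± 0.24, adjusted p = 1.87e-16), with no overlap. Ptgs2 stood at 0.25 and 0.16 CPM against 3.28 and 3.32 CPM (4.02 ± 0.44, adjusted p = 2.71e-09). Such a marker, low in the controls, passed the filter only through the libraries labelled DKO. With a filter of at least 1 count in any library all 20 were tested, with 4 higher and 1 lower. The median of the list was then -0.08, against 0.26 in the main fit. The summed level of the granulosa list was 389 and 414 CPM in the controls, against 432 and 386 CPM under the DKO label, so the groups overlapped; none of the 20 was at 0 in all 4 libraries, and Serpine2, a protease inhibitor, made up most of the sum with 298.9 and 310.6 CPM against 302.2 and 263.9 CPM. Without control replicate 1, DKO replicate 1 or DKO replicate 2, 1 member of the list was also called lower. Of 16 theca and stroma markers 4 were tested and Cyp11a1, the enzyme that starts steroid synthesis, rose; the sum was 14.2 and 16.7 CPM against 25.1 and 21.7 CPM, and Insl3, Col1a2, Col3a1 and Tcf21 were at 0 in all 4 libraries. Of 20 blood, immune and endothelial markers 8 were tested, of which 2 were higher, Pecam1 among them, and 3 lower, Ms4a1, Cd68 and C1qb; Pecam1 did not pass without control replicate 1 (adjusted p = 0.0631). Ms4a1 did not pass without control replicate 1 (0.339), DKO replicate 1 (0.0623) or DKO replicate 2 (0.0657), nor Cd68 without control replicate 1 (0.0595), control replicate 2 (0.0899) or DKO replicate 2 (0.149). Without control replicate 1 the list had 1 call each way, without DKO replicate 2 it had 1 lower, and in the 8-library fit 2 were higher and none lower. The sum lay within 173.1 to 197.5 CPM, and Cdh5, Hba-a1, Hba-a2, Hbb-bs and Hbb-bt were at 0. In these pooled libraries, fewer cells of a type and less RNA per cell cannot be told apart, and the part of other cells in the results was not tested.

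Some genes moved between near absence and a clear level. Under 1 CPM in both libraries of one group and at 5 CPM or more in both of the other were 8 genes in each direction, predicted genes left out. The 6 of each direction with the highest level are described here. Prrx1, a homeobox transcription factor of embryonic mesenchyme, stood at 0.55 and 0.16 CPM in the controls and at 13.4 and 12.6 CPM under the DKO label, a log2 difference of 5.27 ± 0.30 (adjusted p = 3.49e-16). Usp17lb, a deubiquitinase, Pramef25, of the PRAME family, Trim6, a tripartite motif ubiquitin ligase, Rab3c, a GTPase of vesicle exocytosis, and Gpr50, an orphan receptor related to melatonin receptors, rose by between 3.68 and 4.38 log2 units. Gpr50 was at 0.60 and 0.43 CPM in the controls and at 6.72 and 7.84 CPM under the DKO label (3.83 ± 0.30, adjusted p = 6.99e-13).

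In the other direction Zc4h2, an X-linked zinc finger gene, stood at 11.6 and 10.1 CPM in the controls and at 0.24 and 0.26 CPM under the DKO label, which is a log2 difference of -5.43 ± 0.30 (adjusted p = 1.12e-16). Sirt2, a cytoplasmic NAD-dependent deacetylase, was at 6.65 and 8.75 CPM in the controls and at 0.95 and 0.77 CPM under the DKO label (-3.16 ± 0.27, adjusted p = 6.39e-12). Myo7a, an unconventional myosin, and Lgals8, a galectin, fell by 3.07 and 3.22 log2 units. The zinc finger genes Zfp85 and Zfp72 fell by 3.58 and 3.57 log2 units, and both lie on chromosome 13. All 12 of these genes stayed called in the 8-library fit. The gap between the groups that the choice required makes this likely, so it is no separate support.

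**Figure D2:**
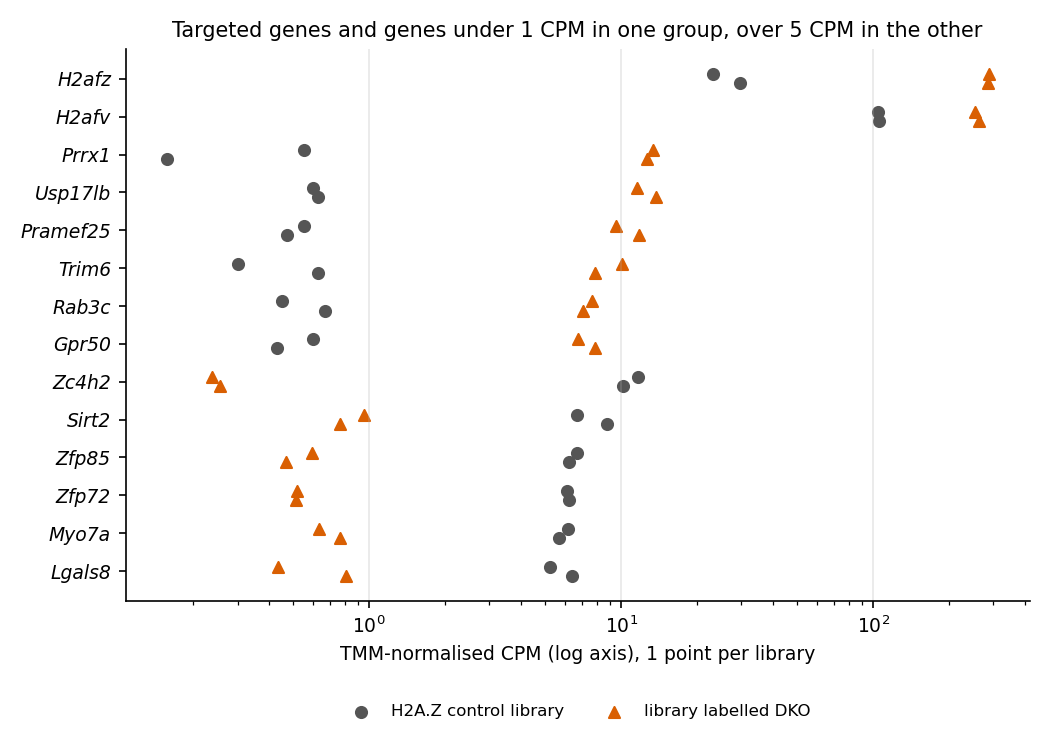
Levels in each library (TMM-normalised CPM, log axis) of H2afz and H2afv and of the 6 genes in each direction that were under 1 CPM in one group and at 5 CPM or more in the other. Circles are the 2 control libraries and triangles the 2 libraries labelled DKO. For the 6 genes in each direction the groups lie apart because of the rule that chose them. Both H2A.Z genes are higher under the DKO label.

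The 200 bases before the RefSeq start of 7 genes that the results turn on are printed below, 5′ to 3′ on the strand of the gene, with each CG dinucleotide in capitals (RefSeq, GRCm38.p6). They are examples that differ in CG content, and do not stand for all genes that moved. H2afz (chr3:137864287-137864486, plus strand) has 24 CG in this stretch, in a promoter of the CpG island type that is common among housekeeping genes. Gpr50 (chrX:71663467-71663666, plus strand) and Fshr (chr17:89200676-89200875, minus strand), both higher under the DKO label, have 4 each.
H2afz: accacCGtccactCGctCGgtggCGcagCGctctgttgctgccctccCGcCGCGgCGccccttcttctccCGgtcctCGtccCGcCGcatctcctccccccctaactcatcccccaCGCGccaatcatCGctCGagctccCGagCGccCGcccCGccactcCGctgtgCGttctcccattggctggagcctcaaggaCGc
Gpr50: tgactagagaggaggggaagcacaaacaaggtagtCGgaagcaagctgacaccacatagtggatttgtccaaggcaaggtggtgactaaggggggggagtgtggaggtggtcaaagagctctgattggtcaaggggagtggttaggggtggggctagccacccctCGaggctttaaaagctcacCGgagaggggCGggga
Fshr: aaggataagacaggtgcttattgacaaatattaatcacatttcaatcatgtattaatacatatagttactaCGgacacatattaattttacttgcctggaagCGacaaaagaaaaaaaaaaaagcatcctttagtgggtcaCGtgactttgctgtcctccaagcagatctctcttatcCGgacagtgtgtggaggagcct

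Among the genes that were lower, Zc4h2 (chrX:95658510-95658709, minus strand) has 5 CG in the same stretch and Cep97, a centriole gene described below (chr16:55934849-55935048, minus strand), has 3. Acadm, of fatty acid oxidation (chr3:153944644-153944843, minus strand), has 9. Polr3f, a subunit of RNA polymerase III (chr2:144527545-144527744, plus strand), has 16, and most of the gap to its neighbour Dzank1 lies within the stretch.
Zc4h2: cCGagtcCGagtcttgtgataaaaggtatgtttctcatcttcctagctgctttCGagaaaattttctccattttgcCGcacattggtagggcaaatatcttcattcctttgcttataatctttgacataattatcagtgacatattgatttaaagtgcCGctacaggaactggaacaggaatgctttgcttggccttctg
Cep97: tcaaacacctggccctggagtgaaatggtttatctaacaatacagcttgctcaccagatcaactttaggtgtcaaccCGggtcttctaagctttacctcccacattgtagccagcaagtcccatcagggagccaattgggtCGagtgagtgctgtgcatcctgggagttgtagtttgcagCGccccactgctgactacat
Acadm: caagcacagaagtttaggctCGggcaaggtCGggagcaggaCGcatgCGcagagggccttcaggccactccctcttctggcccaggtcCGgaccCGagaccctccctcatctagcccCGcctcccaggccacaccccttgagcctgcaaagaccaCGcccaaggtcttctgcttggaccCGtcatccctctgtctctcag
Polr3f: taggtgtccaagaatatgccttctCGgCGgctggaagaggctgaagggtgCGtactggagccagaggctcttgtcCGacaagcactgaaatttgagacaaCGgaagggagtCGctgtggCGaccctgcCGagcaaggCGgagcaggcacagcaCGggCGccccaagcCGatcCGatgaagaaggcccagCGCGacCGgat

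Over all genes the same feature was measured as the observed over expected frequency of CG in the RefSeq promoter window of 250 bases before and 50 after the start, for the 12132 tested genes with such a window. For genes called with a change over 2-fold the median of this ratio was 0.43 for those higher and 0.62 for those lower, against 0.71 for all genes tested. In 10 bins of rising CG content, the share of genes higher by over 2-fold fell from 9.70% in the first bin to 2.31% in the last. The share lower by over 2-fold was 8.96% in the first bin, peaked at 12.7% in the third and came to 3.71% in the last. Counting changes of any size, 24.1% of genes in the bin richest in CG were called higher and 15.8% lower, against the 20.9% and 22.2% over all genes. The level of a gene moved with these shares. Binned by level in the Mll2 wild type libraries, which this comparison does not use, 19.9% of genes in the lowest of 10 bins were higher by over 2-fold and 0.0636% in the highest; for genes lower by over 2-fold the share was 8.01% in the lowest bin, peaked at 13.2% in bin 4 and came to 0.445% in the highest. A gene of low level passed the filter on low counts if either group alone was high enough. The shares in the lowest bins of level are therefore in part set by that filter. Calls also varied with the length of a gene's longest transcript. In 10 bins of length, 28.1% to 29.6% of genes were lower in bins 2 to 5 (1094 to 3103 bases), against 19.7% in the shortest bin and 16.0% in the longest; of the 10 bins the shortest had the most genes higher, 26.0%. The part of level or length in the CG pattern and in the gene lists was not tested. The letters TATAAA, read on both strands, stood in 15.2% of the windows of genes higher by over 2-fold, in 9.24% of those lower and in 8.94% of all; this is a description and not a binding site.

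**Figure D3:**
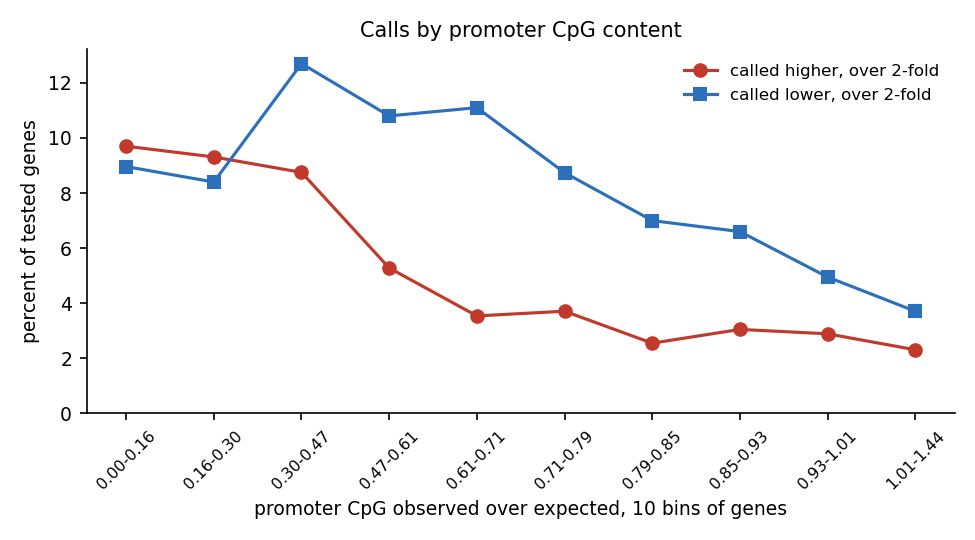
Percent of tested genes called higher (red circles) or lower (blue squares) by over 2-fold in 10 bins of about equal size of the promoter's observed over expected CG frequency (range of each bin on the horizontal axis; 12132 genes). The red line falls from 9.70% to 2.31%, and the blue line peaks at 12.7% in the third bin and ends at 3.71%.

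Measured as change in CPM, a scale on which long and abundant RNAs weigh more, the largest rises under the DKO label included those of Ooep, Mt1, Spin1, Obox5, Omt2b, H3f3b and Skp1a. Ooep, of the subcortical maternal complex, went from 4325 and 4243 CPM to 5416 and 5610 CPM (log2 difference 0.36 ± 0.07, adjusted p = 2.96e-05). H3f3b, a gene for the replacement histone H3.3, went from 1407 and 1351 CPM to 1982 and 2040 CPM (0.54 ± 0.07, adjusted p = 2.73e-08). That both libraries labelled DKO lay above both controls was a condition of this choice of genes. For Ooep and H3f3b the difference was under 2-fold.

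Mt1, a metallothionein that binds zinc and copper, had the largest fold of the named genes. It stood at 7.90 and 3.34 CPM in the controls and at 1120 and 1240 CPM under the DKO label (log2 difference 7.77 ± 0.43, adjusted p = 0.00475). Its call was lost without DKO replicate 1 (adjusted p = 0.0669) and without DKO replicate 2 (adjusted p = 0.0742), at log2 differences of 7.84 and 7.69; the controls differ from each other by over 2-fold. Calls of Spin1 (adjusted p = 0.114), Obox5 (0.0679) and Skp1a (0.385) were lost without control replicate 2, and that of Skp1a also without DKO replicate 2 (0.286). The replicate block lost the calls of Spin1 and Skp1a.

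The largest falls in CPM were those of Nlrp14, Tcl1, Tacc3, Gdf9, Btg4, Fbxw15, Umodl1 and Ubb, which are abundant maternal RNAs. Tacc3, a spindle protein of the centrosome and of the acentrosomal oocyte spindle, fell from 2230 and 2166 CPM to 1378 and 1331 CPM (log2 difference -0.70 ± 0.07, adjusted p = 1.02e-10). Gdf9, a growth factor that the oocyte secretes to the follicle, fell from 3479 and 3529 CPM to 2676 and 2761 CPM (-0.37 ± 0.07, adjusted p = 2.60e-05). Btg4, an adaptor of the deadenylase that clears maternal RNA, fell from 4286 and 4191 CPM to 3463 and 3646 CPM (-0.25 ± 0.07, adjusted p = 0.00219). Fbxw15 did not pass without control replicate 1 (adjusted p = 0.490), without DKO replicate 1 (0.208) or with the replicate block. In the 8-library fit the 7 rises in CPM named above were still called except that of Skp1a, and of the 8 falls Tacc3 alone was.

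Genes of the centriole and the primary cilium that grows from it (mouse oocytes lose their centrioles during growth) were mostly lower or not called. Of 59 tested genes of the list, 28 fell (47.5%) and 4 rose (6.78%), and the list's median was -0.34 against 0.01 over all genes. Cep97, which caps centrioles and restrains cilium growth, was at 3.05 and 3.18 CPM in the controls and at 0.24 and 0.13 CPM under the DKO label, a log2 difference of -4.04 ± 0.46 (adjusted p = 4.59e-09). Stil, needed for centriole duplication, fell by 2.49 (SE 0.34) log2 units. Tmem67, of the ciliary transition zone, went from 6.95 and 8.87 CPM to 0.83 and 1.15 CPM (adjusted p = 1.11e-11).

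Among transport proteins of the cilium Bbs7 and Ift81 fell and Ift43 rose. Bbs7, of the BBSome coat, went from 44.9 and 41.9 CPM to 14.003 and 15.6 CPM (log2 difference -1.55 ± 0.11, adjusted p = 1.59e-13). Ift81, of intraflagellar transport, went from 108.8 and 104.0 CPM to 52.8 and 47.7 CPM (-1.08 ± 0.09, adjusted p = 1.12e-12). Efcab7, which anchors a Hedgehog complex at the cilium base, went from 14.9 and 16.0 CPM to 0.83 and 2.00 CPM (-3.46 ± 0.25, adjusted p = 3.50e-11). The 4 that rose were Cep164, Cep120, Ift43 and Efcab1; only Efcab1, at 0.10 and 0.16 CPM against 0.87 and 1.45 CPM, exceeded 2-fold, and Cep120 did not pass without DKO replicate 1 (adjusted p = 0.0811). Cep97, Stil, Efcab7, Efcab1 and the other names that stand outside the rule for named genes were picked after their values were seen. In the 8-library fit 5 were higher and 21 lower.

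The aminoacyl-tRNA synthetases, which load tRNAs with amino acids, were lower or not called. None of 36 tested genes of the list rose and 17 fell (47.2%), with a median of -0.22. Hars, for histidine, was at 16.2 and 14.6 CPM in the controls and at 3.68 and 2.90 CPM under the DKO label (log2 difference -2.22 ± 0.18, adjusted p = 2.59e-12); it overlaps Hars2 in the annotation, and reads of the 2 cannot be told apart where the counting ignores strand. Lars, for leucine, fell from 25.3 and 20.7 CPM to 6.84 and 6.82 CPM (-1.75 ± 0.15, adjusted p = 8.51e-12). Wars, for tryptophan, fell from 63.5 and 57.2 CPM to 29.1 and 28.04 CPM (-1.08 ± 0.10, adjusted p = 3.24e-11). Of the 17, 12 were of cytosolic enzymes, 3 were of the scaffold of the multi-synthetase complex and 2, Sars2 and Tars2, were mitochondrial; Tars2 did not pass without control replicate 2 (adjusted p = 0.168) or DKO replicate 1 (0.0526). Without control replicate 2 and without DKO replicate 2, 1 member was called higher. In the 8-library fit none was higher and 5 were lower, with a median of -0.10 against 0.12 over all genes. With DESeq2 none was higher and 14 were lower, and the calls of Vars and Tars2 were among those lost. The call of Vars was also lost with the replicate block.

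Of 34 tested genes of peroxisomes and of fatty acid oxidation 15 were lower (44.1%), 2 were higher, Plin2 and Pex6 (5.88%), and 17 were not called; the median was -0.22. Acadm, the medium-chain acyl-CoA dehydrogenase, stood at 54.7 and 52.2 CPM in the controls and at 16.3 and 17.6 CPM under the DKO label (log2 difference -1.66 ± 0.11, adjusted p = 4.43e-15). Hadha and Hadhb, the subunits of the mitochondrial trifunctional protein, fell by 0.78 (SE 0.12) and 0.86 (SE 0.14), and Cpt2, of carnitine-linked import, by 0.81 (SE 0.10) log2 units. The peroxisome assembly genes Pex11a and Pex3 fell by 1.47 (SE 0.13) and 1.16 (SE 0.11). Plin2, the coat protein of lipid droplets, rose from 13.3 and 14.7 CPM to 19.8 and 24.1 CPM (0.65 ± 0.14, adjusted p = 1.95e-04). Pex6 was not called without control replicate 2 (adjusted p = 0.166) or without DKO replicate 1 (0.0808), so that 1 member was higher in each. The 8-library fit had 2 higher and 8 lower, and DESeq2 had 1 higher and 10 lower.

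Autophagy and lysosome genes were called in both directions. Of 43 tested, 16 fell (37.2%) and 7 rose (16.3%; median -0.13). The genes that fell took in ubiquitin-like proteins that mark the autophagosome, their protease and the cargo receptor: Gabarap fell by 0.81 (SE 0.16), Atg4a by 1.11 (SE 0.16) and Sqstm1 by 1.17 (SE 0.20) log2 units. Lysosomal Glb1, a beta-galactosidase, went from 11.8 and 11.5 CPM to 3.72 and 3.28 CPM (log2 difference -1.73 ± 0.19, adjusted p = 2.05e-09). Among the 7 that rose were Atg101 and Atg14, of initiation, and Atg2a, of membrane supply, and Atg14 went from 41.2 and 39.0 CPM to 63.5 and 62.9 CPM (0.66 ± 0.09, adjusted p = 3.95e-07). Without control replicate 1 the number higher was 4, and in the 8-library fit 9 were higher and 12 lower.

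Genes of G1/S control and DNA replication were called in both directions. The oocyte is arrested in meiotic prophase and does not replicate its DNA before fertilisation. Of 57 tested, 23 fell (40.4%) and 8 rose, with a median of -0.14. Of the MCM helicase, Mcm7 fell most, from 39.4 and 36.9 CPM to 15.6 and 12.9 CPM (log2 difference -1.42 ± 0.12, adjusted p = 5.40e-12); its annotated extent holds 3 microRNAs and overlaps Ap4m1. Mcm4 and Mcm6 fell by 0.58 each (SE 0.09), while Mcm5 rose by 0.23 (SE 0.09, adjusted p = 0.0351) but did not pass without control replicate 1 (0.118), control replicate 2 (0.133) or DKO replicate 1 (0.387). Cdc6, which loads the helicase, fell from 34.2 and 37.6 CPM to 19.3 and 19.0 CPM (-0.91 ± 0.11, adjusted p = 3.85e-08). Gmnn, the inhibitor of that loading, rose from 433.2 and 396.4 CPM to 544.4 and 628.4 CPM (0.50 ± 0.07, adjusted p = 1.43e-06). Without control replicate 1, control replicate 2 or DKO replicate 1 the number higher was 5, and in the 8-library fit 8 were higher and 14 lower.

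**Figure D4:**
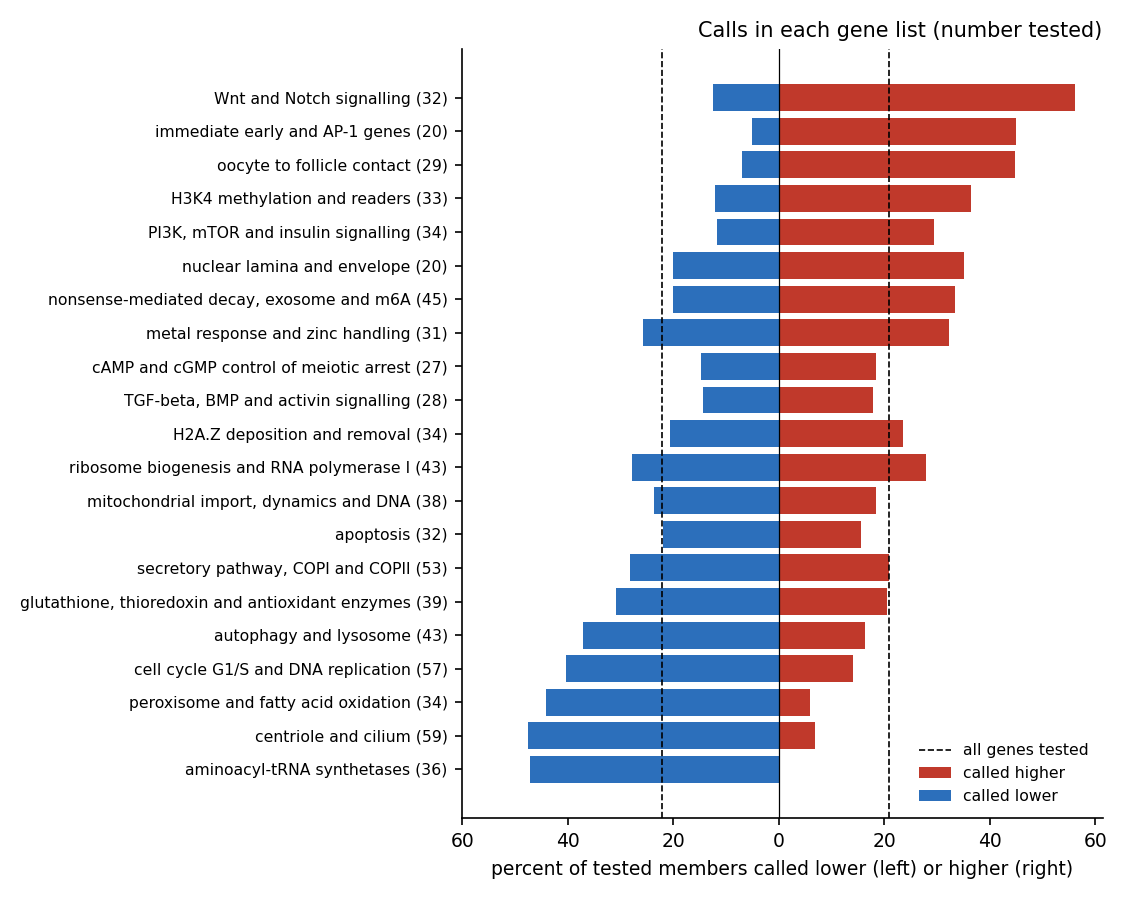
Percent of the tested members of each gene list called higher (red, right) or lower (blue, left) under the DKO label, with the number tested in brackets; cell type marker lists and mitochondrially encoded genes are not drawn. Dashed lines are the 20.9% higher and 22.2% lower over all genes tested; the lists run from Wnt and Notch signalling, with 18 of 32 higher, to the aminoacyl-tRNA synthetases, with 17 of 36 lower and none higher.

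The Wnt and Notch list was among those with more members higher than lower. Of Wnt and Notch genes 32 were tested, of which 18 rose (56.2%) and 4 fell (12.5%), with a median of 0.42. The number higher was less firm than this, since with DESeq2 12 of the 32 were higher and 2 lower. In the 8-library fit 17 of 35 were higher. The Wnt receptor Fzd7 went from 2.30 and 3.77 CPM to 9.45 and 7.54 CPM (log2 difference 1.46 ± 0.22, adjusted p = 1.83e-06). Dkk3, a secreted Dickkopf family protein, went from 0.85 and 0.63 CPM to 3.16 and 3.37 CPM (2.15 ± 0.35, adjusted p = 4.57e-06). Both signs occurred among the antagonists, since Dkk1, an inhibitor of the Wnt co-receptor, fell from 34.1 and 35.7 CPM to 16.0 and 17.9 CPM (-1.05 ± 0.12, adjusted p = 3.29e-09). The 4 that fell were Dkk1, the co-receptor gene Lrp6, Dvl2 and Wnt5a, and Dvl2 was lost without control replicate 1 (adjusted p = 0.116), control replicate 2 (0.160) or DKO replicate 2 (0.200). Wnt5a was lost without control replicate 1 (adjusted p = 0.0604), control replicate 2 (0.468), DKO replicate 1 (0.137) or DKO replicate 2 (0.149). Without control replicate 1, control replicate 2 or DKO replicate 2, and in the 8-library fit, the number lower was 2.

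Of 29 tested genes of contact between oocyte and follicle cells, 13 rose (44.8%) and 2 fell, Spire1 and Cd81 (6.90%; median 0.16). Among the 20 genes of gap junctions and adhesion 11 rose and 1 fell. Ctnnb1, beta-catenin, which links cadherins to actin and also carries Wnt signals, went from 94.3 and 95.4 CPM to 155.7 and 149.3 CPM (log2 difference 0.69 ± 0.08, adjusted p = 4.28e-09). The cadherin gene Cdh1 rose by 0.35 (SE 0.10, adjusted p = 0.00327) and the integrin gene Itga6 by 0.31 (SE 0.08, adjusted p = 0.00147) on the log2 scale. Gja4, the oocyte's gap junction protein, had 354.4 and 387.3 CPM in the controls, with 352.4 and 340.5 CPM under the DKO label (adjusted p = 0.273). Spire1, an actin nucleator of the oocyte cortex, went from 173.6 and 143.2 CPM to 94.6 and 84.1 CPM (-0.82 ± 0.09, adjusted p = 1.64e-08). Without DKO replicate 1 the number higher was 8, and without control replicate 2 the number lower was 1, Cd81 not passing there (adjusted p = 0.0549).

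Immediate early genes, which cells transcribe within minutes of a stimulus, had 20 of 34 members tested; 9 rose and Nr4a2 fell, with a median of 0.43. Btg2, an antiproliferative p53 target, went from 10.9 and 13.6 CPM to 28.3 and 30.6 CPM (log2 difference 1.26 ± 0.13, adjusted p = 7.20e-10). Klf4, a zinc finger transcription factor, went from 1.80 and 1.37 CPM to 5.70 and 5.33 CPM (1.81 ± 0.26, adjusted p = 5.65e-07). Jund, of the AP-1 factors, rose by 1.42 (SE 0.33) and Dusp1, a phosphatase of MAP kinases, by 0.73 (SE 0.11) log2 units. The call of Nr4a2 was lost without control replicate 1 (adjusted p = 0.119), control replicate 2 (0.137), DKO replicate 1 (0.0981) or DKO replicate 2 (0.117), and none of the list was then lower.

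Genes of the machinery that handles H2A.Z itself moved in both directions. Of 34 tested, 8 rose (23.5%) and 7 fell (20.6%), near the shares over all genes, and the median was 0.03. Vps72, the YL1 subunit that binds H2A.Z for deposition by SRCAP and TIP60, went from 88.0 and 87.6 CPM to 46.7 and 47.4 CPM (log2 difference -0.90 ± 0.09, adjusted p = 1.25e-10). Znhit1, the other of the 10 SRCAP subunits listed that fell, went from 28.2 and 30.4 CPM to 19.0 and 18.2 CPM (-0.65 ± 0.12, adjusted p = 2.40e-05); none of the SRCAP subunits rose. Of the 12 TIP60 subunits listed, 7 rose and 2 fell. Each gene was listed under a single complex, though shared subunits such as Vps72 serve both. The counts therefore do not compare the complexes. Ep400, its ATPase, rose by 0.49 (SE 0.08), and Epc1 and Epc2, its scaffold subunits, by 0.61 (SE 0.09) and 0.96 (SE 0.12) log2 units; Kat5, its acetyltransferase, fell by 0.58 (SE 0.16, adjusted p = 0.00357). Of the 12 genes of removal and INO80, Ino80 rose and Actr8, Tfpt and Ino80b fell. Calls lost without 1 library were those of Ino80 (control replicate 2, adjusted p = 0.125), Mrgbp (DKO replicate 1, 0.178), Meaf6 (control replicate 1, 0.146), Mbtd1 (control replicate 2, 0.177, and DKO replicate 1, 0.0750) and Ino80b (control replicate 1, 0.127, and DKO replicate 1, 0.0996). In the 8-library fit 8 were higher and 3 lower.

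H3K4 methylation is the mark that SET1 and MLL complexes place at promoters. Of 33 tested genes for its enzymes and readers, 12 rose (36.4%) and 4 fell (12.1%; median 0.21). Of the 6 methyltransferases 5 rose, with Kmt2c, at 115.5 and 110.4 CPM against 112.5 and 103.7 CPM, the exception (adjusted p = 0.553). Setd1b went from 4.25 and 5.61 CPM to 9.61 and 9.59 CPM (log2 difference 0.95 ± 0.19, adjusted p = 9.33e-05) and Setd1a rose by 0.77 (SE 0.14). Kmt2b, the gene that the Mll2 label refers to, had 13.2 and 15.1 CPM in the controls, with 18.2 and 18.4 CPM under the DKO label (0.36 ± 0.14, adjusted p = 0.0295), and its call was lost without control replicate 1 (0.239), DKO replicate 1 (0.0619) or DKO replicate 2 (0.0802). The core subunits Wdr5 and Dpy30 rose by 0.45 (SE 0.08) and 0.42 (SE 0.07), whereas Ash2l fell by 0.57 (SE 0.10). Men1, menin, fell by 0.59 (SE 0.16) and the demethylases Kdm1b and Kdm5b by 0.34 (SE 0.08) and 0.52 (SE 0.18). The calls of Kdm5b (adjusted p = 0.0825 and 0.175) and of the reader Phf8 (0.339 and 0.0665) were lost without control replicate 2 and without DKO replicate 1. The 8-library fit had 13 of the list higher and 2 lower.

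The 13 protein-coding genes of the mitochondrial genome were added as a list after the table was seen to hold them. Of these 8 were tested; 5 rose and none fell, with a median of 0.57. ND1, a subunit of respiratory complex I, went from 241.9 and 218.6 CPM to 586.6 and 603.9 CPM (log2 difference 1.37 ± 0.07, adjusted p = 1.88e-17). ND2, of the same complex, went from 132.7 and 128.1 CPM to 261.9 and 244.3 CPM (0.96 ± 0.07, adjusted p = 4.35e-13). COX1, the catalytic subunit of cytochrome oxidase, went from 262.5 and 245.9 CPM to 450.7 and 451.8 CPM (0.83 ± 0.07, adjusted p = 5.48e-12). ND5 rose by 0.73 (SE 0.09), and ND6 by 0.42 (SE 0.13, adjusted p = 0.00858), which was lost without control replicate 2 (adjusted p = 0.310) and in the 8-library fit.

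The rise did not extend to every gene of that genome. ND4 was at 104.3 and 99.4 CPM against 122.2 and 109.4 CPM (adjusted p = 0.0611). CYTB, of complex III, was at 449.9 and 403.8 CPM against 407.8 and 375.0 CPM (log2 difference -0.12 ± 0.07, adjusted p = 0.168), and ND3 was near 1 CPM in each library. COX2, COX3, ATP6, ATP8 and ND4L had no count in these 4 libraries, and their levels were not measured here. ND5 and ND6 overlap on opposite strands, as do ND4 and ND4L on the same strand, and reads of such pairs can be assigned to either. Together the 13 genes took 0.131% and 0.122% of the control libraries' counts, and 0.206% and 0.195% in the libraries labelled DKO.

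**Figure D5:**
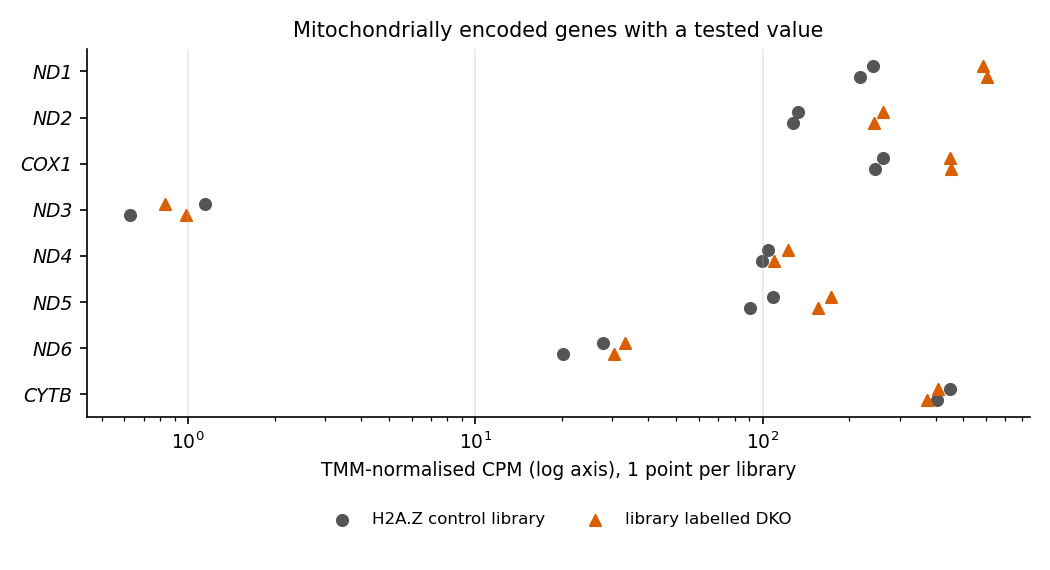
Levels in each library (TMM-normalised CPM, log axis) of the 8 mitochondrially encoded genes that were tested. Circles are the 2 control libraries and triangles the 2 libraries labelled DKO; they lie apart for ND1, ND2, COX1 and ND5 by more than the spread within a group, and overlap for ND3 and CYTB.

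Other lists had fewer of their members on one side. Of metal response and zinc handling genes, 10 of 31 rose (6 without DKO replicate 2) and 8 fell; Ccs, the copper chaperone of superoxide dismutase, fell from 22.5 and 27.9 CPM to 5.81 and 7.67 CPM, and Slc31a1, the copper importer, from 30.2 and 31.1 CPM to 13.8 and 12.3 CPM (log2 differences -1.91 ± 0.16 and -1.23 ± 0.12). Iron entry and storage parted, since Tfrc, the transferrin receptor, rose by 1.01 (SE 0.16) and Ftl1, a ferritin chain, fell by 0.80 (SE 0.08) log2 units. Of antioxidant enzymes 8 of 39 rose (20.5%) and 12 fell (30.8%), against 20.9% and 22.2% over all genes. With DESeq2 7 of them were higher and 9 lower. The peroxiredoxins moved apart, with Prdx6 up by 1.27 (SE 0.10) and mitochondrial Prdx3 down from 42.6 and 47.1 CPM to 13.6 and 15.4 CPM (-1.63 ± 0.12, adjusted p = 5.57e-14). Glutathione synthase and reductase genes Gss and Gsr fell by 1.82 (SE 0.34) and 1.63 (SE 0.38). With 8 libraries in the fit the number lower was 4 for the metal list and 7 for the antioxidant list.

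Of 34 PI3K, mTOR and insulin signalling genes, 10 rose and 4 fell. Of the FOXO factors, which act below PI3K, Foxo1 and Foxo3 rose. Foxo1 went from 107.6 and 118.2 CPM to 180.7 and 178.6 CPM and Foxo3 from 50.04 and 49.7 CPM to 67.3 and 73.2 CPM (log2 differences 0.67 ± 0.08 and 0.49 ± 0.09). Insr, the insulin receptor, rose by 1.75 (SE 0.33) and Ddit4, an inhibitor of mTOR, by 1.24 (SE 0.18), while Sesn1 fell by 2.60 (SE 0.53). Of 27 genes of cAMP and cGMP control, the pathway that holds the oocyte in meiotic arrest, 5 rose (2 without control replicate 2) and 4 fell (2 without control replicate 1). These are 18.5% higher and 14.8% lower, below the 20.9% and 22.2% over all genes. Pde3b, a phosphodiesterase, rose by 0.62 (SE 0.12), and Pkig, an inhibitor of protein kinase A, fell by 0.68 (SE 0.10). Of 28 TGF-beta family genes 5 rose (3 without control replicate 1 or DKO replicate 1) and 4 fell, among them Bmp15, from 2017 and 1810 CPM to 1424 and 1451 CPM (-0.41 ± 0.07, adjusted p = 7.62e-06). The shares of the TGF-beta list, 17.9% higher and 14.3% lower, were also below those over all genes. With 8 libraries in the fit 2 of the cAMP and cGMP list and 2 of the TGF-beta list were lower, and Bmp15 was not called.

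Of 45 genes of RNA surveillance and m6A, 15 rose (7 without control replicate 2) and 9 fell. Within it m6A writers and readers had 7 of 13 higher and 1 lower; Wtap, of the writer complex, went from 77.8 and 71.1 CPM to 106.4 and 102.4 CPM (log2 difference 0.49 ± 0.08, adjusted p = 9.86e-06). Magohb, of the exon junction complex, fell from 82.6 and 81.4 CPM to 30.2 and 33.3 CPM (-1.37 ± 0.09, adjusted p = 1.61e-14). Of the 45, 4 were lower with 8 libraries in the fit. Ribosome biogenesis had 12 of 43 higher and 12 lower, with Wdr12, of large subunit assembly, falling by 1.27 (SE 0.09). Mitochondrial import, dynamics and DNA genes had 7 of 38 higher and 9 lower (5 without control replicate 2, and 3 in the 8-library fit). Nuclear lamina genes had 7 of 20 higher (4 without control replicate 1 or DKO replicate 1) and 4 lower. Secretory pathway genes had 11 of 53 higher (7 without control replicate 2) and 15 lower (8 without control replicate 1, and 5 in the 8-library fit). Of 32 apoptosis genes 5 rose (15.6%) and 7 fell (21.9%), and the mitochondrial import list had 18.4% higher and 23.7% lower. Over all genes these shares were 20.9% and 22.2%. Of the apoptosis genes Pmaip1, the BH3-only protein Noxa, rose from 0.30 and 0.39 CPM to 6.33 and 4.01 CPM (3.86 ± 0.36, adjusted p = 7.98e-11). Bax and Casp8 fell by 0.90 (SE 0.13) and 0.83 (SE 0.08).

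By position, 29.0% of the 490 tested genes of chromosome X were lower and 17.6% were higher, and 12.7% were lower by over 2-fold, against 7.99% over all genes. Neighbouring tested genes formed 10 runs of at least 4 genes that all moved by over 2-fold in the same direction, 8 of them lower and 2 higher. The longest was a run of 8 predicted genes on chromosome 13 from 65335641 to 66862122 (GRCm38.p6), with log2 differences from -4.75 to -1.13. Within it 2410141K09Rik went from 10.9 and 9.46 CPM to 1.07 and 1.41 CPM (-3.04 ± 0.24, adjusted p = 4.91e-13). Gm40988 did not pass without control replicate 1 (adjusted p = 0.145), control replicate 2 (0.0673) or DKO replicate 1 (0.183), nor Gm17353 without control replicate 2 (0.0906) or DKO replicate 1 (0.104), nor Gm10324 without control replicate 1 (0.0535). A run of 5 genes from Rslcan18 to Zfp953 follows on the same chromosome from 67096613 to 67360572. Such genes are near-identical copies in part, and how the authors' counting split reads among them is not given in the sources used here.

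The longest run of higher genes lay on chromosome 15 from 101563343 to 101743097, from Krt75 to Krt71, type II keratin genes with 3 predicted genes between them. Krt71 went from 3.95 and 7.22 CPM to 21.0 and 18.1 CPM (log2 difference 1.78 ± 0.21, adjusted p = 2.33e-06), and Gm5476 did not pass without control replicate 1 (adjusted p = 0.0979). A run of lower genes without such copies lay on chromosome 2 from 144470555 to 144595366 and held Dzank1, Polr3f, Rbbp9, Sec23b and Gm561. Polr3f went from 20.3 and 20.9 CPM to 4.03 and 3.66 CPM (-2.42 ± 0.17, adjusted p = 1.81e-14), and Sec23b, of the COPII coat, fell by 1.31 (SE 0.21). Dzank1, which starts on the opposite strand beside Polr3f, fell by 1.56 (SE 0.48, adjusted p = 0.00858) but did not pass without control replicate 2 (adjusted p = 0.0623) or DKO replicate 1 (0.0974). Another on chromosome 9 held Crtap, Glb1, Tmppe and Trim71; Tmppe lies within Glb1. Trim71, an RNA-binding ubiquitin ligase of early development, went from 244.9 and 233.8 CPM to 97.4 and 111.5 CPM (-1.20 ± 0.08, adjusted p = 5.33e-15).

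Genes that start head to head, on opposite strands within 1000 bases of each other, were counted beside neighbours on the same strand. Of 705 head-to-head pairs 81 (11.5%) were both lower, 19 (2.7%) both higher and 49 (6.95%) called in opposite directions. Of 6161 pairs of neighbours on the same strand, at any distance, 401 (6.51%) were both lower, 319 (5.18%) both higher and 578 (9.38%) opposite. The kinds of pair thus differ in distance as well as in strand, and the part of each was not tested. These counts were added after the data were seen and have no test. In 1 pair, Bivm and Kdelc1 on chromosome 1, whose starts are 149 bases apart in GENCODE M21, Bivm went from 5.60 and 7.73 CPM to 0.95 and 1.11 CPM and Kdelc1 from 14.2 and 15.7 CPM to 2.33 and 3.32 CPM. Their adjusted p were 3.59e-10 and 1.12e-12.

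The Mll2 line gives the reference for what differs between these comparisons, and shares no library with it. Fitted alone it had 3466 of 16127 genes called (21.5%), 10.1% higher and 11.3% lower. Of the 3158 genes that were higher under the DKO label and also tested there, 649 (20.6%) were higher in Mll2 KO and 175 were lower, and these 649 make up 39.7% of the genes called higher in Mll2 KO. Of the 3427 that were lower, 912 (26.6%) were lower in Mll2 KO and 133 were higher, and the 912 make up 49.8% of the genes lower in Mll2 KO. The difference between the lines itself was tested in 1 fit of 8 libraries. It passed for 3291 of 16847 genes (19.5%), 12.9% towards higher and 6.68% towards lower under the DKO label. Scaled by library totals in place of TMM, this difference came to 2.04 against 2.28 for H2afz and to 0.38 against 0.63 for Ooep. For Gdf9 it came to -0.50 against -0.25. The part of the scaling in these shares towards higher and lower, and in the list counts below, was not tested.

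Most of the genes given here were chosen for their change under the DKO label, and of them Zc4h2, Polr3f, Bivm and Cep97 were not called in Mll2 KO. Zc4h2 had a log2 difference of -0.38 in Mll2 KO, and the lines differed by -4.93 ± 0.46 (adjusted p = 3.21e-06, edgeR quasi-likelihood test of the difference). Polr3f (-0.20 in Mll2 KO) differed by -2.09 ± 0.24 (adjusted p = 2.41e-05), Bivm (0.06) by -2.64 ± 0.33 (adjusted p = 5.73e-05) and Cep97 (0.01) at an adjusted p of 5.8e-05. Efcab7 fell further in Mll2 KO (-4.69) than under the DKO label in the same fit (-3.33), and the difference of 1.36 ± 0.46 passed (adjusted p = 0.0498), though not with library totals as the scaling (0.117). Of the genes that rose, Prrx1 differed by 4.28 ± 0.62 (adjusted p = 2.04e-04). H2afz rose in Mll2 KO too, from 7.04 and 7.09 CPM to 19.4 and 15.0 CPM, and its rise under the DKO label was larger by 2.28 ± 0.20 log2 units (adjusted p = 1.83e-06). For Fshr the lines differed by 1.13 ± 0.45 (adjusted p = 0.0882) and for Trim71 by 0.35 ± 0.24 (adjusted p = 0.343), which does not show that they moved alike. Acadm fell further in Mll2 KO, by 2.31, and the difference of 0.77 ± 0.19 passed (adjusted p = 0.0104), but not with library totals (0.0661). Of 59 genes of the centriole and cilium list, 28 fell under the DKO label and 8 in Mll2 KO, where 11.3% of all genes tested were lower, with the difference called towards lower under the DKO label in 10 and towards higher in 6. For the aminoacyl-tRNA synthetases 5 of 36 fell and 3 rose in Mll2 KO, against the 11.3% and 10.1% over all genes there. The difference passed for 3 towards lower and 2 towards higher under the DKO label. Immediate early genes had 11 of 25 higher and 4 lower in Mll2 KO (median 0.69). Wnt and Notch genes had 7 of 34 higher and 4 lower there (0.36), and mitochondrially encoded genes 2 of 10 higher and none lower (0.54). Genes of contact between oocyte and follicle cells had 1 of 30 higher and 6 lower there.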

How the data were processed

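The data are RNA-seq counts per gene symbol, made by the authors from full-grown oocytes with SMART-Seq v4 cDNA (200 pg per library) and Nextera XT, per the labels' protocols. The deposited table holds raw counts, whole numbers with no scaling, for 8 libraries. The submitters' processing notes name RSEM 1.3.1, STAR 2.7.3, Trim Galore 0.6.4 and the build mm10 (GRCm38), with no roles; strand use is not given in the sources used here. Groups came from the titles.

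The 4 libraries of the H2A.Z line were fitted with edgeR 4.0.16 (R 4.3.3): filterByExpr by group, TMM scaling, robust quasi-likelihood test, Benjamini-Hochberg adjustment over all 15721 genes, threshold 0.05. Fitted log2 differences use a prior count, so those of genes with few counts are drawn towards 0. With 2 libraries per group there are 2 residual degrees of freedom per gene, and the spread is pooled over genes (median prior df 34.15). Replicates agreed at r = 0.990 and 0.989 on log2 CPM, and differed beyond sampling noise (chi-square per degree of freedom 4.96 and 6.69). The test was first run on simulated data. The difference between the lines was fitted over 8 libraries and 4 group means. Gene lists are described by counts and medians, with no set test. Members and lists were chosen with earlier results of these data known.

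Named genes are H2afz and H2afv; the 8 called genes each way with the largest change in CPM; the 6 each way under 1 CPM in one group and at 5 CPM or more in the other with the highest level; up to 3 called members of each list by p, and all called members of the H2A.Z and H3K4 lists; and the longest runs of neighbours. Predicted genes are left out of the choices by change in CPM and by level. All others were named after their values were seen, and the results of 2 genes are not reported here. Positions and promoters are RefSeq on GRCm38.p6, matched by symbol or synonym for 15247 of the genes tested (H2afz is H2az1 and H2afv H2az2 there). Alternatives were other scalings, filters, DESeq2 1.42.0, limma 3.58.1 (voom), all 8 libraries, a replicate block, a threshold of 0.01 and leaving out each library.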

Additional observations from a re-analysis of the deposited data

How the results depend on the processing

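With 2 libraries per group, each left-out library leaves 1 in its group, assumed to vary like the others. The numbers of genes higher and lower were 3235 and 3516 after scaling by relative log expression, 3265 and 3446 by library totals, 2432 and 2727 with DESeq2 and 3302 and 3525 with limma voom. Leaving out 1 library gave 2486 to 2911 higher and 2762 to 3142 lower. The 8-library fit gave 3269 higher and 1929 lower, so that the number lower fell by more than 1.5 times; the cause was not tested. The replicate block gave 3309 and 3525; deviations of same-numbered libraries correlated at 0.041 over 2 pairs, so the libraries were not treated as paired. H2afz stayed between 3.27 and 3.62 and H2afv between 1.28 and 1.43 on the log2 scale, and both were called, under all alternatives run. No named gene reversed. For the difference between the lines, library totals as the scaling lost the call of 23 of the 216 named genes and gained that of 16. Of the 213 named genes called, 31 were not called in the 8-library fit, 20 with DESeq2, 20 at the 0.01 threshold, 5 with the block, and 14 to 25 without 1 library. Depth limits genes of few counts: Prrx1 rests on 11 and 4 counts in the controls and Zc4h2 on 6 and 6 under the DKO label.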
